A study of Mus musculus with 9 samples.

Results

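The mammalian mitochondrial ribosome is assembled from RNAs made inside the organelle and from proteins that are encoded in the nucleus, translated in the cytosol and imported. It makes the few hydrophobic subunits of the respiratory chain that mitochondrial DNA still encodes. Its large subunit (proteins named Mrpl) carries the site of peptide bond formation, the exit tunnel, a stalk that recruits translation factors and the central protuberance. Its small subunit (proteins named Mrps) carries the decoding site. Many of these proteins have bacterial homologues and the others are specific to mitochondria.

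The mitochondrial ribosomal protein genes were taken as every listed gene whose symbol is Mrpl or Mrps followed by a digit, without pseudogene symbols. This rule found 78 genes among 36410 listed, of which 51 encode large-subunit proteins and 26 encode small-subunit proteins. Mrps30 and Mrps18a, in spite of their symbols, were counted with the large subunit, where their proteins are known to sit. The remaining gene, Mrps36, carries a ribosomal symbol but is now known to encode a subunit of the alpha-ketoglutarate dehydrogenase complex. All 78 passed the filter on low counts, as did 13508 genes in all.

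RNA was measured in 3 immortalized mouse striatal cell lines that were knocked in at the huntingtin gene and derived from mouse embryos, with strain C57/BL6 given in the labels. The control line (STHdh Q7/Q7) has 7 glutamines in both huntingtin copies, the HD-het line (STHdh Q7/Q111) has 7 in one copy and 111 in the other, and the HD-homo line (STHdh Q111/Q111) has 111 in both. Each line gave 3 libraries of poly(A) RNA with no treatment named, and 29507665 to 41197931 counts per library. With 1 line per genotype, the repeat and the line's own history cannot be told apart, and p-values measure the spread between libraries of a line, which may be technical.

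The lines differed widely, with 29.6% of tested genes higher and 28.9% lower in HD-homo than in control. Control and HD-het libraries numbered 3 stood apart from the other libraries of their line, with a variance over counting noise of 10.9 to 21.1 against 2.20 for control libraries 1 and 2 and 6.18 for HD-het libraries 1 and 2, and HD-homo pairs ranged from 22.6 to 39.2. Striatal projection neuron markers were scarce, with at most 2 of 12 at 1 CPM or more in any line and Drd1 at 0 counts in all 9 libraries. The 12 summed to 90.3 to 100 CPM in control, 115 to 118 in HD-het and 162 to 184 in HD-homo. Fibroblast and mural markers, all 6 of 6 at 1 CPM or more in each line, summed to 4844 to 6140 CPM in control, 14668 to 16547 in HD-het and 6234 to 6817 in HD-homo. Neural progenitor markers summed to 5894 to 6356 CPM in control, 5315 to 5819 in HD-het and 4157 to 4574 in HD-homo. They were at 1 CPM or more in 4 of 4 in control and HD-het and 3 of 4 in HD-homo. Of 6 neuronal markers, 3 were at 1 CPM or more in each line. The part of these cell type markers in the results was not tested. CPM here are counts scaled to a common library total with TMM factors, which adjust for library composition. Htt itself fell, at 93.0 to 104 CPM in control, 61.1 to 64.0 in HD-het and 19.2 to 21.7 in HD-homo.

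The start regions of 6 of these genes are shown as the ends of the range in HD-het: the 3 that were higher in both HD lines (Mrpl36, Mrpl48 and Mrpl41) and the 3 with the largest falls in HD-het that have an entry (Mrps6, Mrpl9 and Mrps27). Each window runs from 250 bases before to 50 after a RefSeq transcript start (GRCm38.p6), in the direction of the gene. Capitals mark exact matches on either strand to letters bound by the transcription factors NRF1 (GCGCANGCG), the ETS family (CCGGAAG) or YY1 (AAGATGGC).
Mrpl36, chr13:73330759-73331058, plus strand: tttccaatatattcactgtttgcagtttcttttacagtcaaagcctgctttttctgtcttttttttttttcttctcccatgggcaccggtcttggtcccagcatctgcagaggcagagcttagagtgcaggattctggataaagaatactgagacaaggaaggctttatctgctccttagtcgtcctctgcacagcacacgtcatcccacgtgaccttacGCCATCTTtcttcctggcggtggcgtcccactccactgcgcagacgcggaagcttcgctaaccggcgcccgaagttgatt
Mrpl48, chr7:100608252-100608551, minus strand: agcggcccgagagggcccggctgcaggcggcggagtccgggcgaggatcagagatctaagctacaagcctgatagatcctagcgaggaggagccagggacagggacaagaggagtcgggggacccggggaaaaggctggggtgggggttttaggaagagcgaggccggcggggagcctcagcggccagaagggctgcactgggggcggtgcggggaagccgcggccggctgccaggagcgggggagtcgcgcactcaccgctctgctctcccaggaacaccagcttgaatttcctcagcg
Mrpl41, chr2:24975049-24975348, minus strand: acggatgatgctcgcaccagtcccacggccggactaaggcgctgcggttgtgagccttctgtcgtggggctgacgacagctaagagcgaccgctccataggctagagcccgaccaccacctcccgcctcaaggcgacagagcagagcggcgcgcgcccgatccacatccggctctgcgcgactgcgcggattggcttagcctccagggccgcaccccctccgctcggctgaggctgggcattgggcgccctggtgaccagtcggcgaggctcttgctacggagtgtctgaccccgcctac
Mrps6, chr16:92058086-92058385, plus strand: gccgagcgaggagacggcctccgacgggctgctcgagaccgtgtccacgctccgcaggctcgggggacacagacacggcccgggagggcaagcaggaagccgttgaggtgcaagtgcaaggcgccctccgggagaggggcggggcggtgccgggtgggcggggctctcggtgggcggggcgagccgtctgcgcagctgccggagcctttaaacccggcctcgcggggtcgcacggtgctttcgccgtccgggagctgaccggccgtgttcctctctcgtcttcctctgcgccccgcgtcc
Mrpl9, chr3:94443086-94443385, plus strand: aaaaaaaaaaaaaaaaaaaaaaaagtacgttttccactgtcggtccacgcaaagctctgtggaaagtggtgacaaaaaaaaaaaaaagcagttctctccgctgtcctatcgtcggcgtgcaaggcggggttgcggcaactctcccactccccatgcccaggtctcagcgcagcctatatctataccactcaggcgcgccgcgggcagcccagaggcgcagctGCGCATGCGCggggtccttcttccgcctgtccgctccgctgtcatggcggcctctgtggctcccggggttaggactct
Mrps27, chr13:99344536-99344835, plus strand: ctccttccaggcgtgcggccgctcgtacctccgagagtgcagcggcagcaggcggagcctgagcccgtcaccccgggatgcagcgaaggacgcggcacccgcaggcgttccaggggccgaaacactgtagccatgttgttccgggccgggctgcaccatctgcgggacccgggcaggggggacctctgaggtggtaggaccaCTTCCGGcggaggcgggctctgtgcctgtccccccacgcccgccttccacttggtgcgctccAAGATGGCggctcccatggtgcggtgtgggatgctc
Mrpl36 has a YY1 match, Mrpl9 an NRF1 match and Mrps27 both an ETS and a YY1 match. The windows of Mrpl48, Mrpl41 and Mrps6 hold none of the 3 motifs, and Mrpl48 has further RefSeq starts that are not shown.

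Promoter windows were found for 69 of the 78 genes, 75 windows in all. The NRF1 letters were in 21.3% of these windows against 6.25% of all 32851 windows in the table. The ETS letters were in 34.7% against 8.86%, and the YY1 letters in 16.0% against 2.75%. The E-box (CACGTG) was in 9.33% against 7.15%. In HD-het the median was negative in genes with and in genes without each of the 3 matches. The median log2 fold change from control was -0.34 in the 16 genes with an NRF1 match and -0.25 in the 53 without, -0.20 in the 26 with an ETS match and -0.36 in the 43 without, and -0.31 in the 12 with a YY1 match and -0.25 in the 57 without. No test was run on these medians.

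Mitochondrial ribosomal protein RNA was lowest in HD-het. The summed level of the 78 genes was 3267, 3265 and 3535 CPM in the control libraries, 2563, 2443 and 2801 in HD-het and 3484, 3261 and 3473 in HD-homo. All HD-het libraries lay below all the others, while the control and HD-homo libraries overlapped. As a share of all counts these were 0.325 to 0.354% in control, 0.244 to 0.276% in HD-het and 0.334 to 0.351% in HD-homo. In bulk RNA, less RNA per cell and fewer cells of a kind cannot be told apart.

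Both subunits followed this order. Large-subunit genes summed to 2285 ± 101 CPM in control, 1761 ± 125 in HD-het and 2317 ± 84.9 in HD-homo (SD, n = 3 each). Small-subunit genes summed to 1053 ± 53.0, 827 ± 56.4 and 1066 ± 42.2 CPM. The ratio of the large to the small sum was 2.16 to 2.18 in control, 2.11 to 2.14 in HD-het and 2.17 to 2.18 in HD-homo, so that the HD-het libraries lay lowest but by little.

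**Figure D1:**
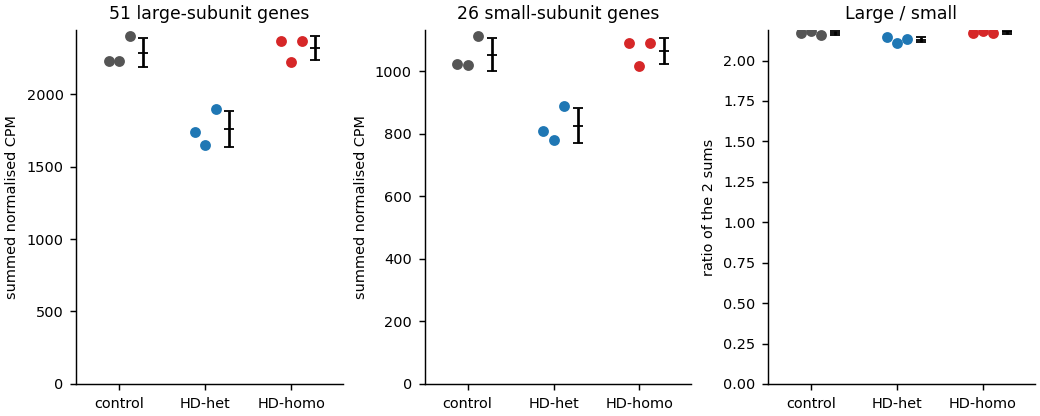
Summed normalised CPM of the 51 large-subunit and 26 small-subunit genes and the ratio of both sums, for each library (points) with the mean and SD of each line (bar to the right of the points, n = 3). The HD-het libraries, at 1648 to 1896 CPM for the large subunit, lie below the control and HD-homo libraries, at 2219 to 2402.

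Levels per length differed widely among the genes. Taking the longest principal transcript of each gene, mean levels over the lines ran from 4.27 CPM per kilobase for Mrpl48 to 91.5 for Mrpl20. The next lowest were Mrps25 at 6.00 and Mrps35 at 6.32, and the next highest were Mrpl12 at 76.6 and Mrps6 at 70.9 CPM per kilobase. With the shortest principal transcript the same 3 were lowest, but Mrps21, Mrpl20 and Mrpl30 were highest. At the level of raw counts, the lowest of any library was 83, for Mrpl36 in control, and the highest 4282. The median coefficient of variation within a line was 5.13% in control, 7.31% in HD-het and 5.47% in HD-homo.

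In HD-het, 51 of the 78 genes were lower than in control and 3 were higher (edgeR quasi-likelihood test, Benjamini-Hochberg adjusted p under 0.05 over all 13508 genes), against a background of 31.4% of all tested genes lower and 33.8% higher. These are 65.4% and 3.85% of the mitochondrial ribosomal protein genes. Their median log2 fold change was -0.28, against 0.03 over all tested genes. In 52 genes every HD-het library lay below every control library (66.7%), against 35.4% of all tested genes. Large-subunit genes had 34 of 51 lower, and small-subunit genes 17 of 26 lower and 0 higher. Genes with a bacterial homologue had 34 of 46 lower and mitochondrion-specific ones 17 of 31. A fall of at least 0.5 on the log2 scale was seen in 23 genes (29.5%), against 16.4% of all tested genes. The others of the 51 falls were smaller. Over all tested genes, 2214 of the 4236 falls called reached 0.5. Values with the median of all tested genes of the same chromosome taken out, an alternative chosen after seeing the data, are called chromosome-adjusted here and are given where they end a call or move it by over 1.5 times. Among the 63 genes with at most 10% of their 50-base words in other genes, 44 were lower and 2 higher. Exons of 24 of the 78 genes overlap a gene on the opposite strand, and whether counting used the strand is not given in the sources used here. The overlap was largest in Mrps25, at 75.6% of the transcript, Mrps34 at 62.7% and Mrps18b at 59.1%, and was 27.0% in Mrpl13. Its part in their values was not tested.

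Mrps6, a small-subunit protein with a bacterial homologue, had the largest fall in HD-het. Its gene lies at chr16:92058270-92112227. It was measured at 74.3, 72.8 and 99.7 CPM in the control libraries, 39.3, 38.7 and 37.4 in HD-het and 58.6, 55.7 and 63.5 in HD-homo. The lines did not overlap, with HD-het lowest and HD-homo between. The log2 fold change from control was -1.09 ± 0.11 in HD-het and -0.47 ± 0.11 in HD-homo, or -0.31 in HD-homo without control library 3. This gene shares exons on the same strand with Slc5a3, a solute transporter gene, and 32.2% of its 50-base words occur in other genes, so that reads can be divided between them. Slc5a3 fell by 1.80 on the log2 scale in HD-het and by 1.22 in HD-homo, and the part of the shared exons in the values of Mrps6 was not tested.

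Mrpl9 and Mrpl13, large-subunit proteins with bacterial homologues, had the next largest falls. Mrpl9, at chr3:94443318-94451130, was measured at 88.2, 90.7 and 95.2 CPM in the control libraries, 48.6, 46.5 and 51.96 in HD-het and 85.04, 77.9 and 85.00 in HD-homo. Mrpl13, at chr15:55534094-55557748, was measured at 84.4, 84.6 and 92.8 CPM in the control libraries, 47.8, 42.98 and 50.2 in HD-het and 97.03, 91.8 and 96.2 in HD-homo. In both genes all HD-het libraries stood well below the other 6, at 0.537 of the control mean for Mrpl9 and 0.539 for Mrpl13, and the log2 fold changes were -0.90 ± 0.06 and -0.89 ± 0.07. The median of chromosome 15, which holds Mrpl13, was itself -0.55, and the chromosome-adjusted fall of Mrpl13 was -0.34, against -0.74 for Mrpl9, so Mrpl13 ranks among the largest falls only without that adjustment. In HD-homo the differences from control were -0.15 ± 0.06 and 0.12 ± 0.07 and did not pass the test (adjusted p = 0.0669 and 0.142).

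Mrps27, a small-subunit protein with pentatricopeptide repeats, lies at chr13:99344786-99415562. It was measured at 37.5, 39.04 and 40.9 CPM in the control libraries, 20.2, 20.97 and 25.5 in HD-het and 44.1, 38.7 and 45.4 in HD-homo. HD-het was again apart from both other lines, which overlapped, with a log2 fold change from control of -0.81 ± 0.10 in HD-het and 0.13 ± 0.09 in HD-homo.

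The stalk proteins, which bind translation factors at the entry of the ribosome, were all lower in HD-het, 3 of 3 against the 31.4% of all tested genes. Mrpl12, at chr11:120484613-120489065, was measured at 119, 119 and 129 CPM in the control libraries, 64.2, 63.1 and 81.9 in HD-het and 121, 101 and 109 in HD-homo. Mrpl11, at the base of the stalk, was measured at 40.2, 39.5 and 44.8 CPM in the control libraries, 23.1, 22.3 and 25.4 in HD-het and 42.9, 38.9 and 41.9 in HD-homo. HD-het lay below the other 6 libraries in both. Their log2 fold changes from control were -0.81 ± 0.10 and -0.81 ± 0.08, and in HD-homo -0.15 ± 0.10 and -0.01 ± 0.08, which did not pass the test. The chromosome-adjusted fall of Mrpl11 was -0.49. Mrpl10, the protein that anchors the stalk, was higher in HD-homo, at 0.27 ± 0.05. In HD-het it gave -0.16 ± 0.05, a call lost without control library 1, control library 3, HD-het library 1 or HD-het library 2 (adjusted p = 0.0671 to 0.0952), and also with chromosome adjustment (-0.08, adjusted p = 0.234).

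Around the exit tunnel, 3 of 8 genes were lower in HD-het (37.5%) and none was higher, a share lower that is near the 31.4% of all tested genes. Mrpl22 had the largest fall, at 34.3, 35.00 and 36.5 CPM in the control libraries, 19.7, 19.4 and 21.4 in HD-het and 41.2, 37.2 and 37.2 in HD-homo. The HD-het libraries stood apart below all the others, with a log2 fold change of -0.81 ± 0.07, and 33.4% of the 50-base words of this gene occur in other genes. Mrpl45, which ties the ribosome to the inner membrane, was lower at -0.43 ± 0.07. Mrpl44, a protein related to ribonuclease III, gave -0.14 ± 0.09 in HD-het, which did not pass the test, and was lower in HD-homo at -0.26 ± 0.09, a call lost without control library 2, control library 3 or HD-homo library 2 (adjusted p = 0.0706 to 0.0897). The chromosome-adjusted values of Mrpl44 were -0.30 in HD-het, which passed the test (adjusted p = 0.0132), and -0.15 in HD-homo, which did not (adjusted p = 0.19). In the central protuberance, 4 of 6 genes were lower in HD-het (66.7%), among them Mrpl38 at -0.70 ± 0.06, and Mrpl48 was higher. Mrpl3, which reaches to the site of peptide bond formation, passed the test in none of the 3 comparisons, with -0.08 ± 0.06 in HD-het and 0.04 ± 0.06 in HD-homo, but with chromosome adjustment it was lower in HD-het at -0.29 (adjusted p = 0.00243).

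The genes Mrps18a, Mrps18b and Mrps18c encode proteins that are all related to a single bacterial protein. In the counts by origin above, only Mrps18c was placed with the bacterial homologues. Mrps18a and Mrps18b were counted there as mitochondrion-specific. Mrps18b was lower in both HD lines, at -0.44 ± 0.10 in HD-het and -0.29 ± 0.10 in HD-homo, the latter a call lost without control library 1, control library 3 or HD-homo library 2 (adjusted p = 0.0707 to 0.0882). Mrps18c was higher in HD-homo, at 0.33 ± 0.08, and gave -0.12 ± 0.08 in HD-het, which did not pass the test. Mrps18a passed the test in no comparison. Between 22.4 and 30.9% of the 50-base words of Mrps18b and Mrps18c occur in other genes. Mrps12, a protein of the decoding site, was lower in HD-homo at -0.30 ± 0.09. In HD-het it was lower at -0.23 ± 0.09, a call lost without control library 1, control library 3, HD-het library 1 or HD-het library 2 (adjusted p = 0.0823 to 0.144), and also with the length trend taken out (adjusted p = 0.143). The chromosome-adjusted fall in HD-het was larger, at -0.35 (adjusted p = 0.0042).

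**Figure D2:**
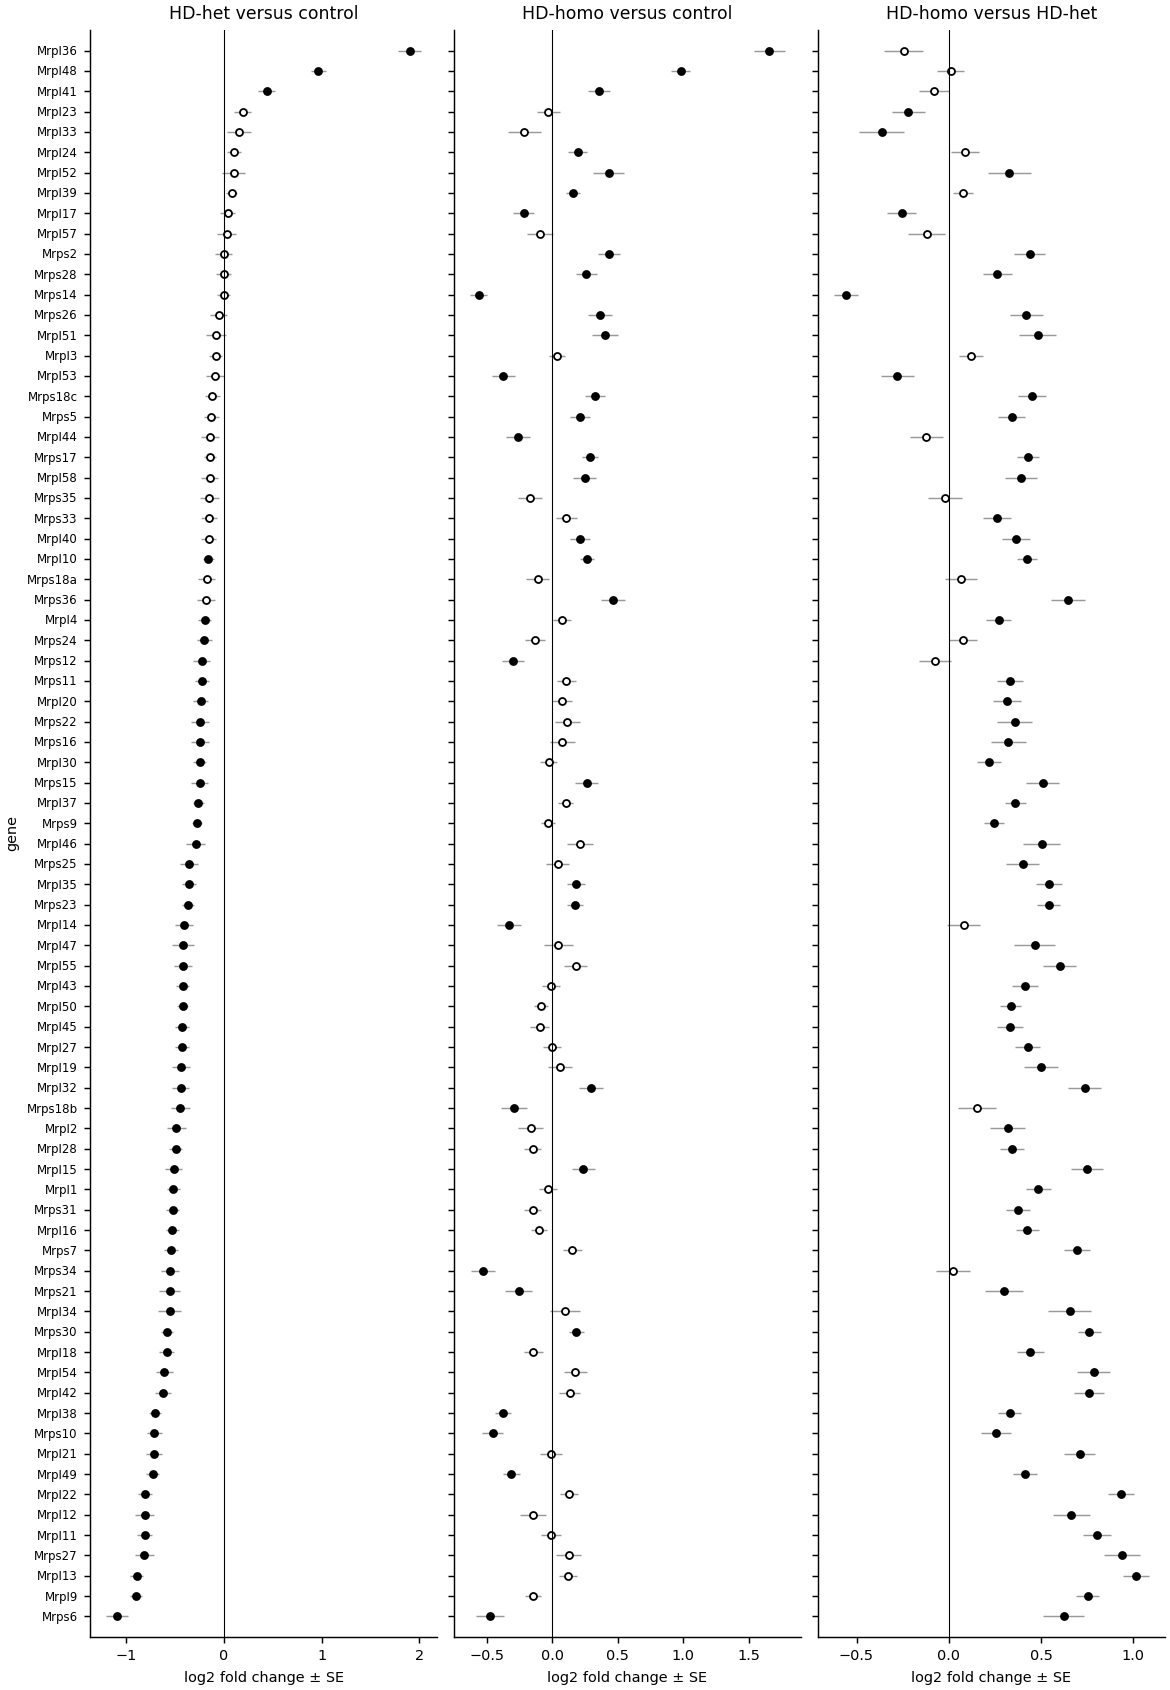
Log2 fold change ± SE of each of the 78 genes in the 3 comparisons, ordered by HD-het versus control, with filled points past the threshold and open points not. Filled points to the left of 0 number 51 in HD-het versus control and 13 in HD-homo versus control, and the 3 genes at the top, Mrpl36, Mrpl48 and Mrpl41, are to the right of 0 in both. The horizontal axes have different ranges.

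Mrpl36, Mrpl48 and Mrpl41 were the 3 genes higher in HD-het, and all 3 were also higher in HD-homo. A rise in both HD lines was thus rarer among mitochondrial ribosomal protein genes (3.85%) than among all tested genes (13.6%). Both comparisons use the same control libraries. Mrpl36, a small protein of the large subunit with a bacterial homologue, lies at chr13:73328513-73332178. It was measured at 2.89, 2.68 and 2.81 CPM in the control libraries, 10.3, 9.21 and 11.8 in HD-het and 9.29, 8.52 and 8.62 in HD-homo. The control libraries lay far below the other 6, and the means were 3.74 times control in HD-het and 3.16 times control in HD-homo. The log2 fold changes were 1.90 ± 0.12 and 1.66 ± 0.12, and HD-homo and HD-het differed by -0.24 ± 0.11 (adjusted p = 0.0593). The chromosome-adjusted difference was -0.52 (adjusted p = 0.00116), so whether HD-homo lay below HD-het depended on that adjustment. The gene shares no 50-base word with other genes. Ndufs6, a complex I gene next to Mrpl36, was also higher in both HD lines, by 0.32 in HD-het and 0.39 in HD-homo on the log2 scale, and was looked up after the values of Mrpl36 were seen. Its libraries overlapped with control in both comparisons. The median of chromosome 13 was -0.07 in HD-het and 0.20 in HD-homo.

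Mrpl48, a mitochondrion-specific protein of the central protuberance, lies at chr7:100545751-100608301. It was measured at 10.7, 11.03 and 11.7 CPM in the control libraries, 20.8, 21.2 and 23.5 in HD-het and 22.1, 21.9 and 21.9 in HD-homo. Both HD lines lay apart above control, at 1.96 times the control mean in HD-het and 1.97 times in HD-homo, and the difference between them was 0.01 ± 0.07. With chromosome adjustment it was 0.32, with HD-homo higher (adjusted p = 0.00199). Mrpl41, a mitochondrion-specific protein at chr2:24974117-24975098, was measured at 13.03, 12.3 and 12.5 CPM in the control libraries, 17.3, 15.6 and 18.3 in HD-het and 16.00, 15.3 and 17.1 in HD-homo. Control again lay below the other 6 libraries, with log2 fold changes of 0.44 ± 0.08 and 0.36 ± 0.08. The median over all tested genes of chromosome 2 was 0.24 in HD-het and 0.22 in HD-homo, and with the median of each chromosome taken out Mrpl41 no longer passed the test (adjusted p = 0.0669 in HD-het and 0.186 in HD-homo). Of its 50-base words, 13.8% occur in another gene.

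**Figure D3:**
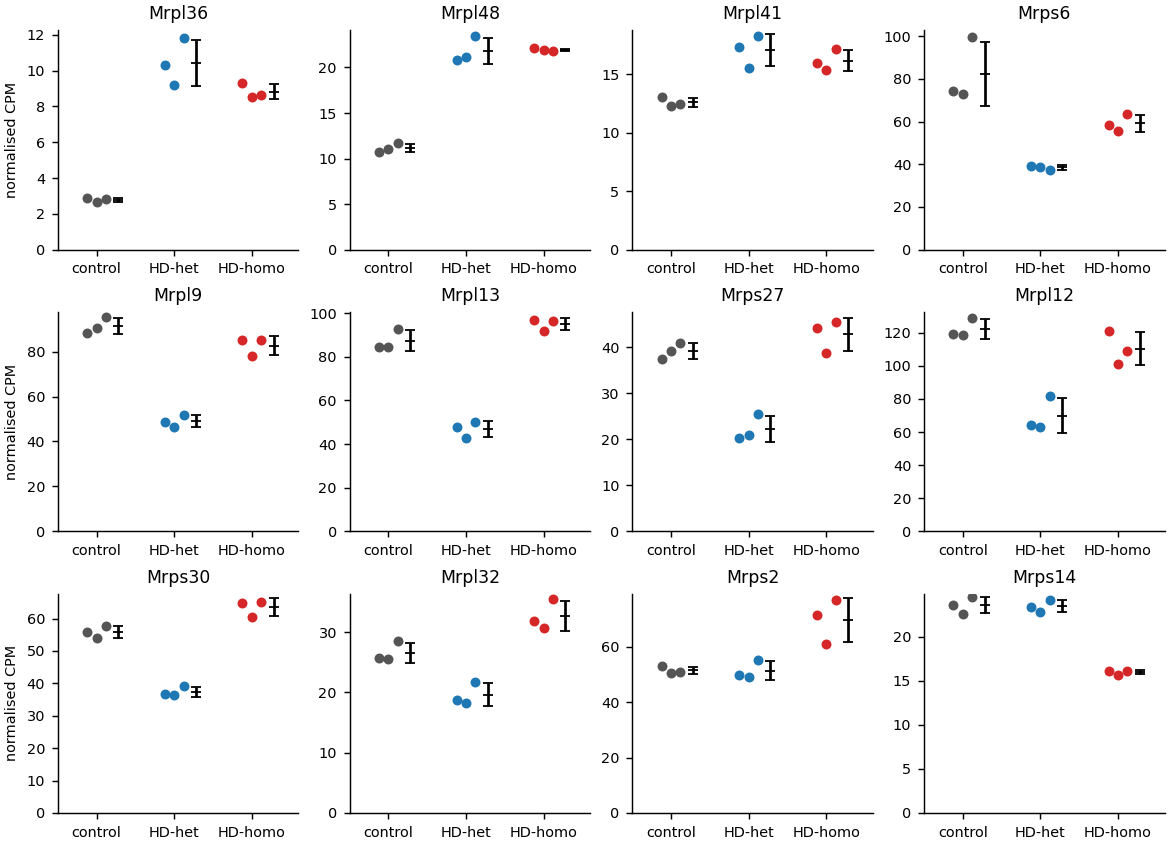
Normalised CPM of 12 mitochondrial ribosomal protein genes in each library (points), with the mean and SD of each line (bar to the right, n = 3) and vertical axes from 0. Mrpl36 rises from 2.68 to 2.89 CPM in control to 9.21 to 11.8 in HD-het, and Mrps6, Mrpl9, Mrpl13, Mrps27 and Mrpl12 are lowest in HD-het.

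HD-homo differed from control in both directions. Of the 78 genes 23 were higher (29.5%) and 13 lower (16.7%), against 29.6% and 28.9% of all tested genes, so the share of higher genes was that of the background. The libraries did not overlap in 26 higher genes (33.3%, against 32.7% of all tested genes) and 20 lower genes (25.6%, against 32.6%). Their median log2 fold change was 0.07, against 0.01 over all tested genes. Only 2 genes in each direction changed by at least 0.5 on the log2 scale (2.56%), against 16.2% of all tested genes higher and 16.3% lower by that much. The count of higher genes rested on single libraries, at 11 without control library 1 or without control library 2, 13 without HD-homo library 1 and 15 without HD-homo library 3. Over all tested genes the count of higher genes was 4002 of 13508 with all libraries. In these fits it was 3475 of 13703, 3513 of 13698, 3750 of 13691 and 3848 of 13661. Large-subunit genes had 14 higher and 6 lower, and small-subunit genes 8 higher and 7 lower.

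After Mrpl36 and Mrpl48, the largest rises in HD-homo were in Mrps36, the dehydrogenase subunit, and in Mrps2, a small-subunit protein with a bacterial homologue. Mrps36 was measured at 16.1, 16.2 and 17.99 CPM in the control libraries, 15.4, 13.7 and 15.2 in HD-het and 24.2, 24.5 and 20.6 in HD-homo. Mrps2, at chr2:28468066-28471178, was measured at 52.9, 50.4 and 51.1 CPM in the control libraries, 49.8, 48.99 and 55.3 in HD-het and 71.3, 61.02 and 76.8 in HD-homo. The HD-homo libraries lay above the other 6 in both, and the log2 fold changes from control were 0.47 ± 0.09 and 0.44 ± 0.08. In HD-het they were -0.18 ± 0.09 and 0.00 ± 0.08 and did not pass the test. The chromosome-adjusted rises in HD-homo were 0.26 and 0.22, and Mrps2 then was lower in HD-het at -0.25 (adjusted p = 0.0241). Of the words of Mrps36, 36.2% occur in other genes, its pseudogenes among them. The next were the mitochondrion-specific large-subunit genes Mrpl52 at 0.43 ± 0.12 and Mrpl51 at 0.41 ± 0.10, and Mrps26 at 0.37 ± 0.09, which lost its call with the chromosome median taken out (adjusted p = 0.181).

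Mrps14, a small-subunit protein with a bacterial homologue, had the largest fall in HD-homo. Its gene lies at chr1:160195215-160202170. It was measured at 23.6, 22.7 and 24.5 CPM in the control libraries, 23.4, 22.9 and 24.2 in HD-het and 16.1, 15.7 and 16.1 in HD-homo. The HD-homo libraries lay below the other 6, and control and HD-het could not be separated. The log2 fold change from control was -0.56 ± 0.07 in HD-homo and 0.00 ± 0.06 in HD-het, and from HD-het to HD-homo it was -0.56 ± 0.07. Chromosome-adjusted, the last was -0.29 and the difference between HD-het and control -0.16 (adjusted p = 0.0477). It was the only gene of the 78 to fall by at least 0.5 on the log2 scale from HD-het to HD-homo before that adjustment. That is 1.28%, against 24.2% of all tested genes.

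Mrps34, Mrps10, Mrpl38 and Mrpl49 were lower in both HD lines, as were Mrps6, Mrps12, Mrps18b, Mrpl14 and Mrps21, 9 genes in all (11.5%), against 11.6% of all tested genes. Mrps34 was measured at 30.3, 29.97 and 35.3 CPM in the control libraries, 20.6, 20.2 and 24.3 in HD-het and 23.2, 21.1 and 21.9 in HD-homo. Both HD lines lay below control and overlapped each other, with log2 fold changes of -0.55 ± 0.09 in HD-het and -0.53 ± 0.09 in HD-homo. Mrps10 was at -0.71 ± 0.08 and -0.45 ± 0.08, Mrpl38 at -0.70 ± 0.06 and -0.37 ± 0.06, and Mrpl49 at -0.73 ± 0.07 and -0.31 ± 0.06. In these 3, HD-homo was higher than HD-het, for Mrps10 a call lost without HD-het library 2 or HD-homo library 3 (adjusted p = 0.0574 to 0.0647) and with the length trend taken out (adjusted p = 0.0607). The median over all tested genes of chromosome 17, which holds Mrps34, Mrps10, Mrpl14 and Mrps18b, was -0.23 in HD-homo, and with it taken out Mrpl14 and Mrps18b no longer passed the test there (adjusted p = 0.367 and 0.621), while Mrps34 was at -0.30 and Mrps10 at -0.23. The chromosome-adjusted fall of Mrpl49 in HD-het was -0.40, and its rise from HD-het to HD-homo 0.19. Mrps12 likewise lost its call in HD-homo, with its chromosome median taken out (adjusted p = 0.295). Mrps21 stood close to the threshold in HD-homo (adjusted p = 0.0494), a call lost without control library 3, HD-het library 1, HD-het library 2, HD-homo library 1, HD-homo library 2 or HD-homo library 3 (adjusted p = 0.0552 to 0.223). Its log2 fold change was -0.13 without control library 3 and -0.15 with chromosome adjustment. It is one of the genes that share over 10% of their words with other genes.

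Between the HD lines, 58 of the 78 genes were higher in HD-homo (74.4%) and 5 lower (6.41%), against 36.0% and 35.6% of all tested genes. The median log2 fold change was 0.36, against 0.00 over all tested genes. The largest differences were in Mrpl13 at 1.01 ± 0.07, Mrps27 at 0.94 ± 0.10, Mrpl22 at 0.93 ± 0.07, Mrpl11 at 0.80 ± 0.08 and Mrpl54 at 0.79 ± 0.09. Chromosome-adjusted, Mrpl13 was at 0.44, below Mrpl22 at 0.83 and Mrps27 at 0.66. The 5 lower ones were Mrps14, Mrpl33, Mrpl53, Mrpl17 and Mrpl23, and without HD-het library 3 only 1 of them was called and without HD-het library 1 only 3. With chromosome adjustment Mrpl17 and Mrpl23 turned to 0.06 and 0.09 and did not pass the test (adjusted p = 0.536 and 0.371). Of these, Mrpl23, Mrpl33 and Mrpl53 share over 10% of their words with other genes, up to all of them for Mrpl53.

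The most frequent pattern was an HD-het line below both others. In 46 genes (59.0%) all 3 HD-het libraries lay below the other 6, against 23.7% of all tested genes. The opposite, HD-het above the other 6, was found in 1 gene, Mrpl23 (1.28%), against 25.0%. By the tests, 46 genes were lower in HD-het than in both other lines (59.0%, against 22.3%) and 0 were higher than in both (against 22.7%). In 34 of the 46, HD-homo and control were not told apart by the test. In 5, HD-homo was also lower than control, a pattern whose share over all tested genes is not given here, and in 7 it was higher.

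Those 7 were Mrps30, Mrpl15, Mrpl32, Mrps23, Mrpl35, Mrps15 and Mrpl10 (8.97%, against 6.34% of all tested genes). The opposite pattern, higher in HD-het and lower in HD-homo, was found in 0 of the 78, against 8.18%. Mrps30, a large-subunit protein in spite of its symbol, was measured at 55.8, 54.1 and 57.8 CPM in the control libraries, 36.7, 36.3 and 39.2 in HD-het and 64.96, 60.4 and 65.2 in HD-homo. Mrpl32, a protein that is cut by a protease of the inner membrane as it matures, was measured at 25.8, 25.6 and 28.5 CPM in the control libraries, 18.7, 18.3 and 21.8 in HD-het and 31.8, 30.7 and 35.5 in HD-homo. In both, the 3 lines formed separate groups, with HD-het lowest and HD-homo highest. The log2 fold changes from control were -0.58 ± 0.06 in HD-het and 0.18 ± 0.06 in HD-homo for Mrps30, and -0.44 ± 0.09 and 0.30 ± 0.09 for Mrpl32. The rises in HD-homo of these 7 were small, from 0.17 to 0.30 on the log2 scale. For 6 of them, all but Mrpl10, the rise lost its call without control library 1 and without control library 2, with the adjusted p between 0.0557 and 0.131. The fall of Mrps15 in HD-het was a call lost without control library 1, control library 2, control library 3, HD-het library 1 or HD-het library 2 (adjusted p = 0.0508 to 0.121), and Mrpl35 and Mrps23 lost their rise without control library 3 too (adjusted p = 0.0511 and 0.0585). Without HD-homo library 1, Mrps30, Mrpl15, Mrps23, Mrpl35 and Mrps15 lost it, and without HD-homo library 3, Mrps30, Mrpl15, Mrpl32, Mrps23 and Mrpl35. For Mrpl15 the rise was 0.15 without HD-homo library 3. With chromosome adjustment the rise in HD-homo lost its call in 5 of the 7, at -0.02 in Mrps30, 0.09 in Mrpl32, 0.08 in Mrpl35, 0.20 in Mrps15 and 0.15 in Mrps23 (adjusted p = 0.801, 0.408, 0.359, 0.0806 and 0.0564). As Mrpl10 then lost its fall in HD-het, Mrpl15 was the only one of the 7 to keep both calls.

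The median change of all tested genes differed between chromosomes. Over all tested genes, the median log2 fold change in HD-het was -0.55 on chromosome 15, -0.32 on chromosome 19 and -0.31 on chromosome 10. It was 0.24 on chromosome 2 and 0.34 on chromosome 18, which holds none of the 78 genes. Chromosomes 15, 19 and 10 hold Mrpl13, the group of Mrpl11, Mrpl16, Mrpl21, Mrpl43 and Mrpl49, and the pair Mrpl42 and Mrpl54, and all 8 were lower in HD-het, against 31.4% of all tested genes. On other chromosomes with a negative median, 10 of 11 were lower on chromosome 11, 7 of 8 on 17, 3 of 5 on 3, 3 of 5 on 13 and 2 of 2 on 8. On those with a positive median other than chromosome 2, 4 of 4 were lower on chromosome 4, 3 of 5 on 1 and 2 of 3 on 9. The rest were 3 of 6 on 7, 3 of 7 on 6, 1 of 4 on 5, 1 of 3 on 14 and 1 of 3 on 16. Chromosome 2 holds Mrpl41, Mrps2, Mrps26 and Mrps5, of which none was lower in HD-het and all 4 were higher in HD-homo, for Mrps5 a call lost without control library 1, control library 2, control library 3, HD-homo library 1 or HD-homo library 3 (adjusted p = 0.0548 to 0.105). With chromosome adjustment Mrps2 alone of these 4 was still higher in HD-homo, Mrps5 was at -0.01 there, and Mrps2, Mrps26 and Mrps5 were lower in HD-het (adjusted p = 0.0241, 0.0133 and 0.00116). Of the 78 genes, 69 lay below the median of their own chromosome in HD-het, and the median difference from it was -0.33. With chromosome adjustment 57 genes were lower and 3 higher in HD-het, and 11 lower and 17 higher in HD-homo. Over all 13005 genes of that fit, 4088 were lower and 4118 higher in HD-het, and 3555 lower and 3405 higher in HD-homo. Of 161 calls of named genes in the 3 comparisons, related genes included, 30 were lost with chromosome adjustment. Another 30 kept their call but moved by over 1.5 times in size. A further 19 results passed the test only with it.

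**Figure D4:**
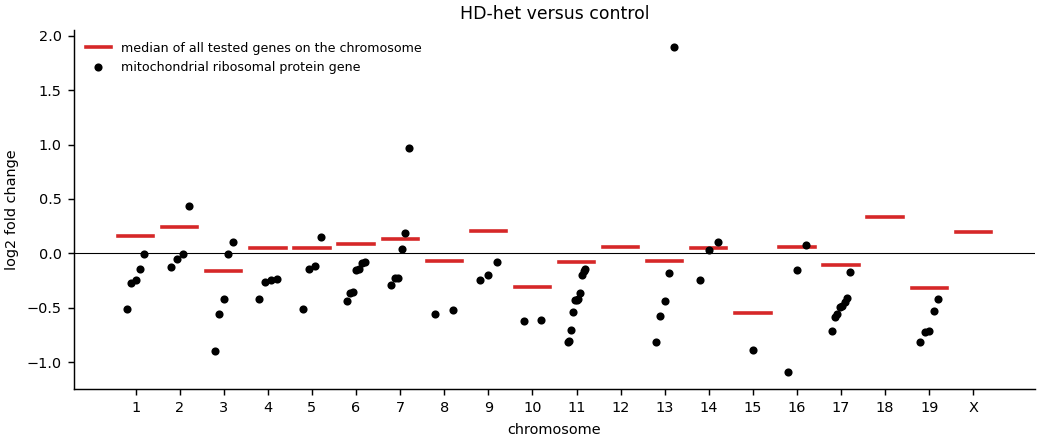
Log2 fold change in HD-het versus control of each mitochondrial ribosomal protein gene (points) by chromosome, with the median of all tested genes on that chromosome (red bars). Most points lie below the bar of their chromosome, 69 of 78, and the high point on chromosome 13 is Mrpl36 at 1.90.

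Transcript length also moved with the comparison. Genes with transcripts of at most 800 bases had a median log2 fold change of -0.12 in HD-het, and those over 5000 bases 0.05. The mitochondrial ribosomal protein genes are short, with a median of 1302 bases against 3053 for tested genes with a length. By length class, their median was -0.21 against -0.12 for all genes up to 800 bases (16 genes) and -0.29 against -0.04 up to 1200 (19 genes). It was -0.39 against -0.02 up to 1800 bases (16 genes) and -0.19 against 0.05 up to 3000 (10 genes). From 3000 to 5000 bases it was -0.39 against 0.04 (14 genes), and over 5000 bases -0.14 against 0.05 (3 genes). No test was run on these medians by class. With the length trend taken out, also chosen after seeing the data, 46 were lower and 6 higher in HD-het. Over all 13005 genes of that fit, 4176 were lower and 4445 higher.

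Cytosolic ribosomal protein genes, the 84 tested genes named Rpl or Rps with their close paralogues, were also lower in HD-het. There 81 of 84 were lower (96.4%) and 0 higher, against 31.4% and 33.8% of all tested genes, with a median log2 fold change of -0.49, against -0.28 for the mitochondrial ones. In HD-homo 10 were higher (11.9%) and 13 lower (15.5%), against 29.6% and 28.9%, with a median of 0.03. Many cytosolic genes have processed pseudogenes, so that their counts are less certain. The difference between both sets was not tested.

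**Figure D5:**
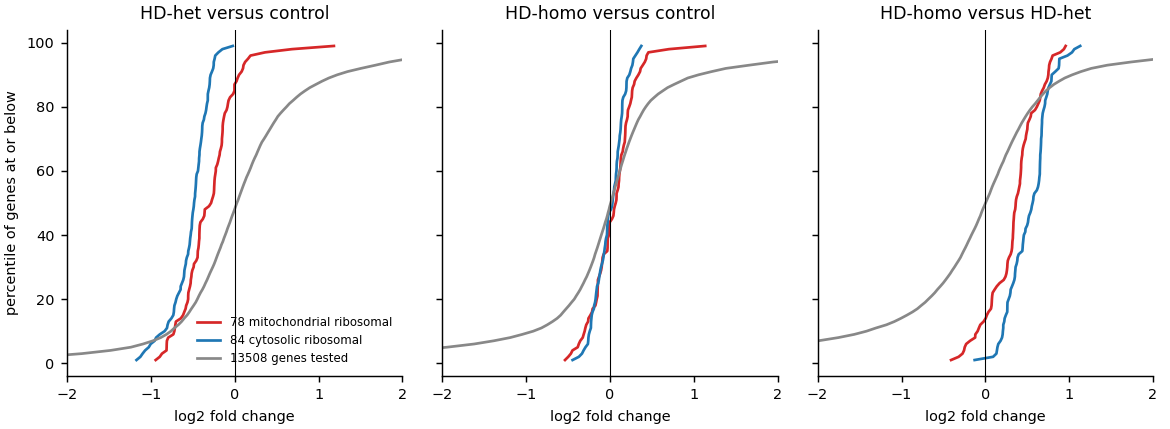
Percentiles of the log2 fold change over the 78 mitochondrial ribosomal protein genes, the 84 cytosolic ribosomal protein genes and all 13508 tested genes, in the 3 comparisons (horizontal axis cut at -2 and 2). In HD-het versus control both ribosomal sets lie to the left of all genes, with medians of -0.28 and -0.49 against 0.03, and in HD-homo versus control the 3 medians lie between 0.01 and 0.07.

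Of 5 further mitochondrial ribosomal proteins without such a symbol, 4 were lower in HD-het (80.0%, against 31.4% of all tested genes) and 0 higher. Ptcd3, a small-subunit protein with pentatricopeptide repeats, gave -0.48 ± 0.06. Gadd45gip1, of the large subunit, gave -0.52 ± 0.13. Chchd1 gave -0.27 ± 0.07 and Dap3, a nucleotide-binding small-subunit protein, -0.14 ± 0.05, a call lost without control library 3, HD-het library 1 or HD-het library 2 (adjusted p = 0.0591 to 0.0974). The chromosome-adjusted value of Dap3 was 0.02, and Chchd1 was at -0.15 with the length trend taken out. Aurkaip1, another small-subunit protein, was lower in HD-homo at -0.37 ± 0.07 and gave -0.07 ± 0.07 in HD-het.

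In the related lists that follow, counts are read against 31.4% of all tested genes lower and 33.8% higher in HD-het, and 28.9% lower and 29.6% higher in HD-homo. Of 16 translation factors and partners, 7 were lower (43.8%) and 2 higher (12.5%) in HD-het. In HD-homo 4 were lower (25.0%) and 5 higher (31.2%), near the shares of all tested genes. Lrpprc, which stabilises mitochondrial mRNAs, had the largest fall, -1.12 ± 0.07 in HD-het and -0.58 ± 0.07 in HD-homo, followed by the elongation factor Tsfm at -0.64 ± 0.09 and -0.39 ± 0.09. Chromosome-adjusted, Lrpprc was at -0.35 in HD-homo and Tsfm at -0.33 in HD-het. Mtif2, the initiation factor, was higher in HD-het at 0.35 ± 0.09, and Mtfmt, which formylates the initiator tRNA, at 0.26 ± 0.08, a call lost without control library 3 or HD-het library 1 (adjusted p = 0.0593 to 0.0602). Chromosome-adjusted, Mtfmt was at 0.06 (adjusted p = 0.562). In HD-homo the recycling factor Mrrf was higher at 0.46 ± 0.11, which lost its call with chromosome adjustment (0.25, adjusted p = 0.0903). Taco1, an activator of cytochrome oxidase translation, was higher at 0.31 ± 0.09.

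Of 26 assembly and ribosomal RNA processing factors, 7 were lower (26.9%) and 3 higher (11.5%) in HD-het, and 4 lower (15.4%) and 5 higher (19.2%) in HD-homo, each below the share of all tested genes. Mtg1, a GTPase of large-subunit assembly, was higher in both HD lines, at 0.63 ± 0.09 and 0.51 ± 0.09. Mettl15, a ribosomal RNA methyltransferase, was higher in HD-het at 0.67 ± 0.13, or 0.43 chromosome-adjusted. Mrm3, another such methyltransferase, and the GTPase Noa1 were lower there at -0.63 ± 0.11 and -0.49 ± 0.11. In HD-homo Fastkd2 gave -0.60 ± 0.07 and Mettl17 -0.51 ± 0.15, the latter a call lost without control library 2 (adjusted p = 0.0563). Ybey was higher there at 0.34 ± 0.11, a call lost without control library 1, control library 2 or HD-homo library 1 (adjusted p = 0.0639 to 0.0743).

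Of 20 genes for charging mitochondrial tRNAs, 10 were lower (50%) and 3 higher (15%) in HD-het, and 8 lower (40%) and 1 higher (5%) in HD-homo. Mars2, the methionyl enzyme, had the largest fall in both, at -0.90 ± 0.07 in HD-het and -0.64 ± 0.07 in HD-homo. Qrsl1, a subunit of the amidotransferase that makes glutaminyl tRNA, gave -0.75 ± 0.07 in HD-het (-0.44 chromosome-adjusted), and Lars2, the leucyl enzyme, -0.58 ± 0.09 in HD-homo. Gatb, another amidotransferase subunit, was higher in HD-het at 0.36 ± 0.14, a call lost without control library 1, control library 2, control library 3, HD-het library 1, HD-het library 3 or HD-homo library 1 (adjusted p = 0.051 to 0.166), and at 0.23 without HD-het library 3. Pars2, the prolyl enzyme, was higher there at 0.29 ± 0.12, a call lost without control library 1, control library 2, control library 3, HD-het library 1 or HD-het library 3 (adjusted p = 0.0836 to 0.117). Rars2, the arginyl enzyme, was higher in HD-homo at 0.23 ± 0.08, a call lost without control library 1, control library 3 or HD-homo library 3 (adjusted p = 0.0885 to 0.0939). Both Pars2 and Rars2 also lost these calls with chromosome adjustment (adjusted p = 0.086 and 0.105).

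Of 12 regulators of mitochondrial genes, 6 were lower (50%) and 1 higher (8.33%) in HD-het, and 7 lower (58.3%) and 1 higher (8.33%) in HD-homo. Pprc1 and Myc had the largest falls in HD-het, at -0.94 ± 0.06 and -0.85 ± 0.09, or -0.62 and -0.30 chromosome-adjusted. Ppargc1a, a coactivator of mitochondrial biogenesis, was higher there at 0.71 ± 0.17 from a low level of 5.24 CPM in control. Ppargc1b fell by 2.15 on the log2 scale in HD-homo, from 8.46 to 1.92 CPM. Gabpa, an ETS factor, was the regulator that was higher in HD-homo, at 0.30 ± 0.06 (0.19 chromosome-adjusted), and was lower in HD-het, at -0.24 ± 0.06. Polrmt, the mitochondrial RNA polymerase, was lower in both, at -0.53 ± 0.09 and -0.39 ± 0.09, the first -0.22 chromosome-adjusted. Nrf1 did not pass the test, at -0.16 ± 0.07 in HD-het and -0.05 ± 0.07 in HD-homo. The RNAs encoded by mitochondrial DNA were not analysed here.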

How the data were processed

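Poly(A) RNA was sequenced from 9 libraries, 3 from each of 3 cell lines. The authors deposited whole-number counts per gene symbol. Per the labels, total RNA was isolated with a miRNeasy kit and directional libraries were made with NEBNext Ultra II, and the submitters' processing notes name cutadapt, Bowtie 1.1.2, RSEM 1.3.0 and DESeq2 and the builds GRCm38.p5 and mm10. RSEM gives estimates, so the deposited counts may be rounded estimates in which reads of near-identical copies were divided between genes.

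The counts were tested with edgeR 4.0.16 (R 4.3.3): TMM scaling, filterByExpr with a minimum count of 10, and the quasi-likelihood test of all 3 pairs of lines in a single fit of all libraries, with Benjamini-Hochberg adjustment over 13508 genes. SE is the log2 fold change divided by the root of the F statistic. The script was tested on simulated data. Intervals cover the spread between libraries only. Totals per library were 29507665 to 41197931, so that a count of 3 corresponds to 0.0710 to 0.101 CPM.

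Positions and transcript lengths are from GENCODE M21 (GRCm38). Shared words are 50-base stretches of the longest principal transcript of a gene that occur in transcripts of other genes. Named genes were the 8 largest changes per direction and comparison past the threshold with non-overlapping libraries and at least 5 CPM, the genes with a known special role, the other ribosomal proteins, the largest changes in the related lists, genes with opposite calls, the 3 highest and lowest levels per length, and genes sharing over 10% of words. The members and lists were chosen with earlier results of these data known. Alternatives were DESeq2 1.42.0, other scalings and filters, 2 lines at a time, a replicate block, leaving out libraries, stricter thresholds and 3 added after seeing the data. Replicate numbers were not treated as pairs in the main fit. Correlations of same-numbered deviations ran from -0.0053 to 0.145. Differently numbered libraries were not compared, so these values cannot decide whether the numbers pair libraries.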

Additional observations from a re-analysis of the deposited data

Results flagged for a closer look

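In 7 genes the HD-het line was lower and the HD-homo line higher than control, and the test of the difference between the HD lines itself passed the threshold. The log2 fold change of HD-homo over HD-het (edgeR quasi-likelihood test) was 0.76 in Mrps30, 0.75 in Mrpl15, 0.74 in Mrpl32, 0.54 in Mrpl35, 0.54 in Mrps23, 0.51 in Mrps15 and 0.42 in Mrpl10. All HD-homo libraries were above all HD-het libraries in each. Both contrasts with control use the same control libraries, and the rises over control in HD-homo were each at most 0.30 on the log2 scale. With the median of each chromosome taken out, the difference between the HD lines was 0.49 in Mrps30 and 0.46 in Mrpl32, and 5 of the 7 rises over control and the fall of Mrpl10 in HD-het no longer passed the test.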

How the results depend on the processing

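Fewer genes were called in HD-homo versus control under stricter thresholds. With an adjusted p under 0.01, 11 were higher and 8 lower, and when the change also had to reach 0.5 on the log2 scale, 2 were higher and 2 lower. That last threshold left 23 lower (29.5%) in HD-het versus control, and 21 higher (26.9%) and 1 lower (1.28%) in HD-homo versus HD-het. Over all tested genes these shares were 16.4%, 21.4% and 24.2%. An adjusted p under 0.01 also left 1 lower in HD-homo versus HD-het. Counts over all tested genes at an adjusted p under 0.01 are not given here. Without control and HD-het libraries numbered 3, 2 were lower in HD-homo versus HD-het, and with the length trend taken out 6 were higher in HD-het versus control. Leaving out 1 library at a time gave 11 to 24 higher and 9 to 14 lower in HD-homo versus control, 3 higher and 41 to 54 lower in HD-het versus control, and 54 to 58 higher and 1 to 6 lower in HD-homo versus HD-het. The median log2 fold changes then ran from 0.04 to 0.11, from -0.36 to -0.25 and from 0.32 to 0.42. Over all tested genes these fits gave 3475 to 4077 higher and 3367 to 3991 lower in HD-homo versus control. They gave 4082 to 4800 higher and 3783 to 4427 lower in HD-het versus control. In HD-homo versus HD-het they gave 4528 to 4859 higher and 4449 to 4822 lower. With the replicate block, 25 of the 78 were higher and 18 lower in HD-homo versus control, 4 and 52 in HD-het versus control, and 58 and 5 in HD-homo versus HD-het, with medians of 0.07, -0.28 and 0.36. Over all 13508 tested genes these counts were 4234 and 4138, 4750 and 4410, and 4991 and 4947. The main fit did not treat the replicate numbers as pairs.

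Of 161 calls of named genes, 117 kept direction and threshold in all 19 alternative fits. With the chromosome median taken out, 27 results changed sign, of which 20 passed the test neither before nor after. The other 7 were Dap3 in HD-het versus control (0.0170), Mrps30 and Mrps5 in HD-homo versus control (-0.0196 and -0.0057), and Mrpl17 (0.0573), Mrpl23 (0.0928), Mrps12 (0.239) and Myc (-0.0033) in HD-homo versus HD-het. That alternative ended 30 calls. The cause was not tested beyond the alternative's own construction. Adding pseudogene counts to their parent gene could not be run, as no listed pseudogene symbol was matched to a gene studied. Depth limits Mrpl36 most, at 83 to 93 counts in control libraries.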
